A study of Rattus norvegicus with 7 samples.

Results

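Gene expression of NRK-52E cells given siRNA 2600, a small interfering RNA directed at Adamts16, was compared with that of NRK-52E cells given a scrambled siRNA. The comparison holds 5 of the 7 arrays of the series, chosen by sample title: 2 arrays of siRNA 2600 and 3 of the scrambled control. The other 2 arrays hold a second siRNA against Adamts16, siRNA 3488, and are used here for the estimate of the spread and to set the changes with siRNA 2600 beside another siRNA. NRK-52E is an established epithelial line from rat kidney. All groups were handled alike: cultures fed 10% serum were plated at 20% confluence, received their siRNA by lipofection at 100 pmol per ml, and gave RNA 48 h later. Each array holds RNA of a separate culture, per the series design, and no untransfected culture is among the arrays.

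Adamts16 encodes a secreted metalloprotease with thrombospondin motifs, a family that cuts and organises components of the extracellular matrix, and the series concerns it as a candidate gene for inherited hypertension. An siRNA guides the RNA-induced silencing complex to a transcript that matches its guide strand along its whole length, and a match to the seed, bases 2 to 8 of the guide, can lower other transcripts as a microRNA does. A second siRNA of another sequence against the same gene is therefore a usual control in such designs.

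The duplexes are shown because their letters set which transcripts each can match, and no seed is shared between them. They are given 5′ to 3′ without the deoxythymidine overhangs, with the seed of each strand in capitals.
siRNA 2600 sense: cCTATATTtctgtgcgcaa
siRNA 2600 antisense: tTGCGCACagaaatatagg
scrambled sense: cCTCCAATgtgctcggtaat
scrambled antisense: aTTACCGAgcacattggagg
siRNA 3488 antisense: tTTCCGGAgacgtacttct
None of these seeds was that of a rat microRNA in RefSeq (0 of 693 mature sequences for each strand). Seed matches in transcripts were not analysed here.

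Adamts16 itself was read by 1 probe set, and its signals were near the bottom of the array's range. They were 21.4 and 2.42 with siRNA 2600, 8.68, 7.18 and 18.9 in the controls, and 12.1 and 40.4 with siRNA 3488. The groups overlapped, and the siRNA 2600 arrays lay on either side of all 3 controls. The difference on the log2 scale was -0.56 ± 1.04 (SE), with a 95% interval from -2.88 to 1.77 (limma, adjusted p = 0.903). Permuting the arrays gave p = 0.9 (exact, two-sided), where 2 against 3 arrays cannot go below 0.1. At the 15.6th percentile of mean signal the probe set lay under the level used to test genes, so the arrays do not tell whether its transcript was lower, and the targeted gene gives no check of the labels.

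Array-wide measures of the 5 arrays were close but not equal. Median signals were 126.1 and 136.8 with siRNA 2600 and 139 to 139.6 in the controls. The siRNA 2600 arrays did not stand together over all tested probe sets: Pearson correlations of log2 signal for replicate 1 were 0.985 and 0.984 against controls 1 and 2, and 0.98 against the other siRNA 2600 array. On the first principal component of all 7 arrays replicate 1 (17.7) lay within the controls (11.4 to 20.1), and replicate 2 (-6.72) lay between them and siRNA 3488 (-22.3 and -37.2). The ratio of the 3′ to the 5′ actin control probe sets, a measure of RNA integrity and labelling, was 1.81 and 1.83 with siRNA 2600 against 1.74 to 1.79 in the controls; its part in the changes below was not tested. Epithelial markers were uneven in this line. Krt8 (a keratin) and Tjp1 (a tight junction scaffold) lay at the 98.2nd percentile of signal, whereas Cdh1 (E-cadherin) lay at the 6.3rd, Epcam at the 13.8th and Krt18 at the 16.5th, and the proximal tubule transporters Slc5a2 and Slc34a1 were also dim. Col3a1 and Mfap5, which fibroblasts express, lay at the 99.9th and 99.8th, while the fibroblast markers Pdgfra and Lum lay at the 10.7th and 8.51st. Among leukocyte markers Cd14 lay at the 98.1st percentile and Ptprc at the 6.65th. Many markers were too dim to test. Tested were 4 of 8 epithelial, 4 of 7 proximal tubule, 5 of 9 fibroblast, 1 of 5 endothelial and 4 of 7 leukocyte markers. None of those tested passed. The summed signal of 8 epithelial markers was 12720 and 12360 with siRNA 2600 against 12480 to 13420 in the controls. That of 9 fibroblast markers was 43100 and 47410 against 41530 to 44670. The brightest genes set both sums. With siRNA 2600, Krt8 gave 6006 and 5835 of the first, and Tjp1 6100 and 5901. Col3a1 gave 19020 and 20480 of the second, and Mfap5 16870 and 19370. In bulk RNA, fewer cells with a transcript and less of it per cell cannot be told apart.

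Few transcripts passed between cells given siRNA 2600 and control cells, and most of those changed by less than 2-fold. At an adjusted p under 0.05, 192 of 18625 probe sets passed (limma, Benjamini-Hochberg over all tested), which is 1.03% of those tested. Of these, 102 were higher (0.548%) and 90 lower (0.483%) with siRNA 2600. Only 8 of the higher and 13 of the lower ones reached 2-fold, and 39 and 49 reached 1.5-fold. The median size of the change was 0.57 on the log2 scale, with a range from 0.29 to 2.11 and a median SE of 0.09. Without adjustment 2831 probe sets had a p under 0.05, so the 192 that passed do not measure how many transcripts differed.

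The test favours probe sets on which the replicate arrays are close, so likeness of the siRNA 2600 arrays among those that passed follows from the choice and is given as a description. For all 192 probe sets both siRNA 2600 arrays lay on the same side of all 3 control arrays, an arrangement that 14.4% of tested probe sets showed upwards and 19.6% downwards. The median difference between the siRNA 2600 arrays was 0.11 on the log2 scale for these probe sets and 0.16 for all tested. In 140 of the 192 the arrays were within 0.2 of each other.

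**Figure D1:**
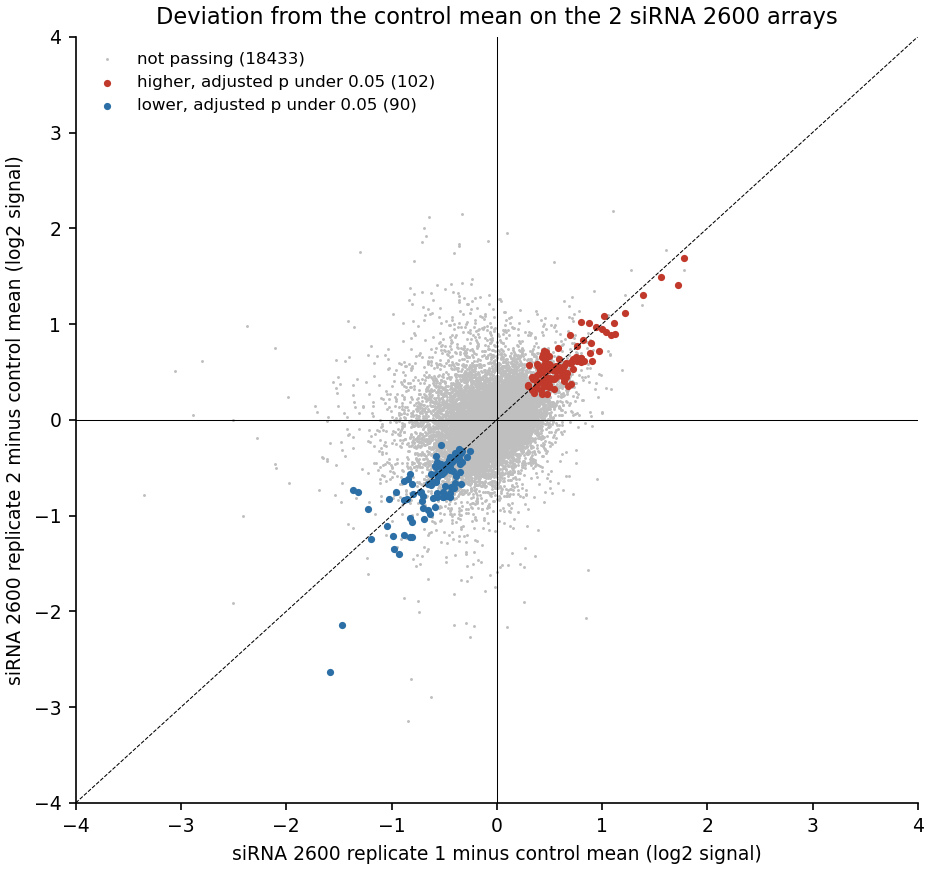
Deviation of each of the 18625 tested probe sets from the mean of the 3 control arrays on the log2 scale, with siRNA 2600 replicate 1 on the horizontal axis and replicate 2 on the vertical axis; red marks the 102 probe sets that were higher, blue the 90 that were lower, grey the rest, the dashed line equality, and 1 probe set lies beyond the axes. The coloured points lie near the dashed line, a place that the test itself favours, while many grey points deviate on one array and not on the other.

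The number of probe sets that passed rested on few arrays and on the model of the spread. Leaving out scrambled control replicate 1, 2 or 3 left 37, 25 or 33, almost all of them among the 192 (36, 25 and 33). Without siRNA 2600 replicate 1 there were 231, of which 98 were among the 192, and without replicate 2 there were 96, with 62 of the 192. When the spread was not allowed to vary with signal, 0 passed in limma, with 2585 at an unadjusted p under 0.05. Centring each array on its median log2 signal gave 160 higher and 45 lower, 78% higher in place of 53.1%, so the balance of rises and falls is not fixed by these data. The genes named next kept their direction under all 17 alternatives in which they were tested, and 12 of the 28 passed under all but the one without an intensity trend. The other 16 lost the call under further alternatives too. These numbered 12 for Usp6nl, 10 for Fbxl20, 9 for Idi1, and 7 each for Igfbp5, Myo1f, Dhcr7, Amhr2 and Hlf. They numbered 6 for Tbl1xr1 and Coro6, 5 for Lypd8 and Akap8l, 4 for Sema3f and 4933427D14Rikl, 3 for Gosr2 and 2 for Hba-a3.

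The 14 largest rises, ranked by the smaller of the deviations of the siRNA 2600 arrays, included Rgs5, Igfbp5 and Inhba. Igfbp5, a secreted protein that binds insulin-like growth factors, read 242 and 195 with siRNA 2600 and 67.7, 87.45 and 67.05 in the controls. Both siRNA 2600 arrays lay above the highest control, and the difference was 1.56 ± 0.26 (log2, SE; limma, adjusted p = 0.0246), a call lost under 8 of 16 alternatives. A second probe set of the gene rose by 0.99 (adjusted p = 0.00814), and the 3 others were too dim to test. Inhba, which encodes the beta A subunit of activin A, read 719 and 669 against 357, 340 and 304. This was a rise of 1.06 ± 0.11 (adjusted p = 0.00486), with its dimmer probe set at 0.60 (adjusted p = 0.321). Rgs5, a protein that shortens signalling by G protein-coupled receptors, read 297 and 282 against 85.8, 106 and 112, a rise of 1.52 ± 0.18 (adjusted p = 0.00659).

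Mlec, an endoplasmic reticulum lectin that binds glucosylated glycoproteins, read 2550 and 2373 with siRNA 2600 and 1203, 1157 and 946 in the controls. The rise was 1.17 ± 0.11 (limma, adjusted p = 0.00471), and its second probe set rose by 1.05 (adjusted p = 0.0073). Uggt1, an enzyme that adds glucose to misfolded glycoproteins, read 718 and 627 against 475, 424 and 410. It rose by 0.62 ± 0.11 (adjusted p = 0.0313) and was the only one of 46 tested endoplasmic reticulum chaperones and translocation factors to pass, where 1.1% of all genes passed. The list's median was 0.09.

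Among the other rises, Myo1f, a class I myosin, read 311 and 292 against 122, 144 and 96.0, a rise of 1.34 ± 0.22. Lypd8, a lipid-anchored surface protein, rose by 0.97 ± 0.16, and Kif20a, a kinesin of cytokinesis, by 0.79 ± 0.08. The mitotic gene Nuf2, the sterol enzymes Idi1 and Dhcr7 and the serine enzyme Psat1 are described with their pathways. For 4 genes the probe sets disagreed. Pafah1b2, a catalytic subunit of the intracellular platelet-activating factor acetylhydrolase, rose by 0.94 on one probe set and 0.58 on another (limma, adjusted p = 0.0183). The third, its brightest, was at 0.17. Klc1, a kinesin light chain, rose by 0.80 on the named probe set while its other tested ones were at 0.03 and, on the brightest, -0.31. The long noncoding RNA Oip5-as1 rose by 0.83 on one probe set, with the others at 0.33 and, on the brightest, -0.12. The fourth was Idi1, whose dimmer probe set was at -0.15 (adjusted p = 0.719).

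Among the 14 largest falls, Amhr2, the type II receptor for anti-Mullerian hormone, read 41.87 and 26.2 with siRNA 2600 and 141, 110 and 101 in the controls. The fitted change was -1.81 ± 0.30 (limma, adjusted p = 0.0258), but both siRNA 2600 signals lay under the level of the filter (6.09 on the log2 scale), which the probe set passed through the other arrays. Its size is therefore not well measured: it ran from -2.14 to -0.76 over 16 alternatives, the latter with signals raised to the filter level (adjusted p = 0.12), and 8 of them ended the call. Sod3, the extracellular superoxide dismutase, read 316 and 301 against 574, 671 and 720, a change of -1.08 ± 0.12 (adjusted p = 0.00545). Lbp, a secreted protein that binds bacterial lipopolysaccharide, read 395 and 343 against 676, 710 and 716, a change of -0.93 ± 0.10 (adjusted p = 0.00486). Neither gene's arrays overlapped between the groups. Sema3f, a secreted guidance molecule, changed by -0.78 ± 0.12, while its second, brighter probe set was at 0.10.

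Apex2, an endonuclease of base excision repair, read 231 and 197 against 446, 483 and 444, a change of -1.10 ± 0.13 (limma, adjusted p = 0.00659). Akap8l, a nuclear anchoring protein for protein kinase A, fell on all 3 of its probe sets, with log2 changes of -0.80, -0.66 and -0.48. Gosr2, a SNARE of the Golgi, fell on both of its probe sets (-0.92 and -0.51). Hlf, a transcription factor of the PAR bZIP family whose level follows the circadian clock, changed by -1.04 ± 0.20 on the named probe set. That call was lost under 8 of 16 alternatives. Its brightest probe set was at -0.51 (adjusted p = 0.0746). No gene of the 17 tested clock genes passed on its brightest probe set, where 1.1% of all genes did. Coro6, a coronin, changed by -0.81, Hba-a3, an alpha globin, by -0.74, and 4933427D14Rikl, known by a clone name, by -0.74, although a second probe set of the last was at -0.04.

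For 5 of the falls, Sema3f and 4933427D14Rikl among them, another probe set of the gene was near 0 or above it. Of the others, Tbl1xr1, a subunit of nuclear corepressor complexes, changed by -1.02 ± 0.17, with its other tested probe sets between -0.34 and 0.02. Fbxl20, an F-box protein, changed by -0.85 ± 0.16, with others between -0.83 and 0.17. Usp6nl, which acts on the endosomal GTPase Rab5, changed by -0.87 ± 0.17, with others at 0.29 and 0.11. The brightest probe set, which was not the named one, was at -0.34 for Tbl1xr1, 0.17 for Fbxl20 and 0.29 for Usp6nl. The calls of Fbxl20 and Usp6nl were among those lost most often, under 11 of 17 and 13 of 16 alternatives.

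**Figure D2:**
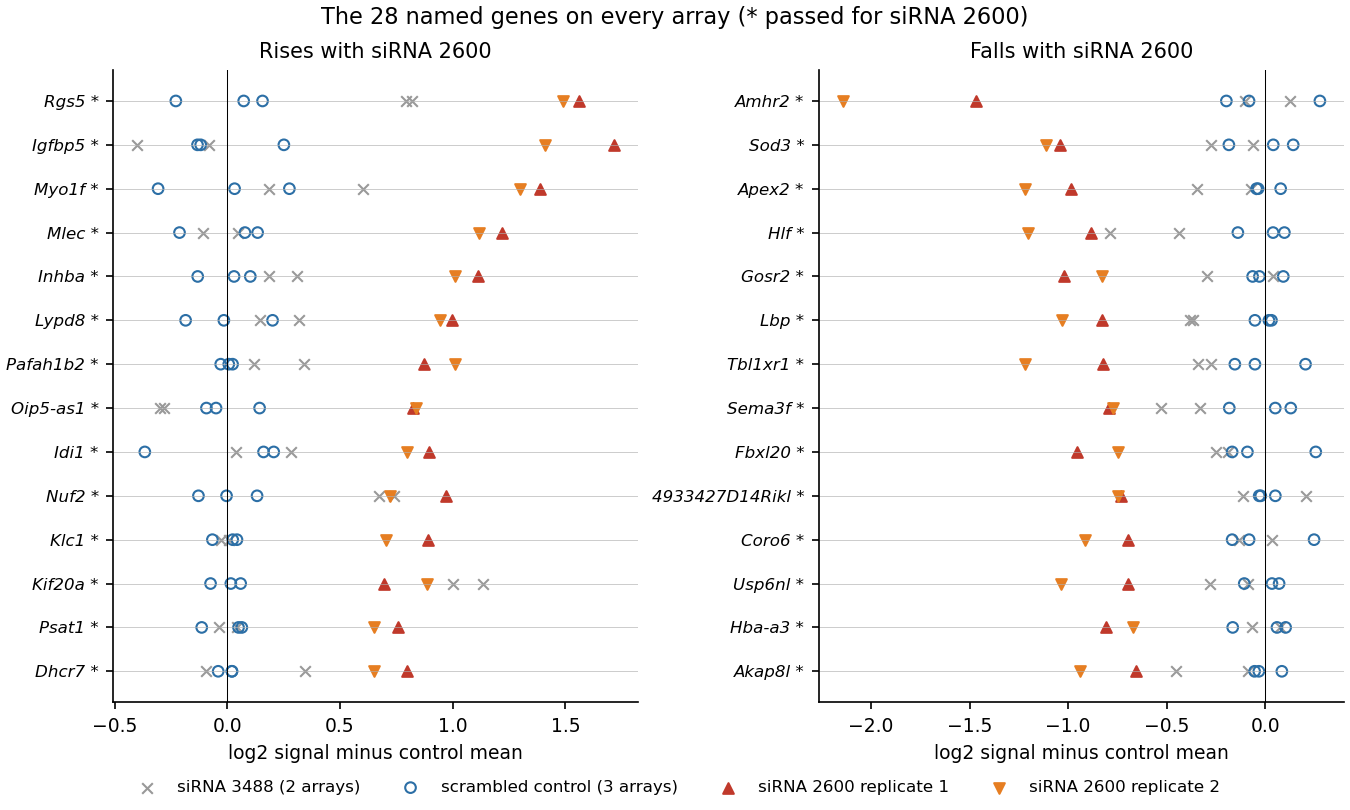
Log2 signal minus the control mean on every array for the 14 largest rises (left) and 14 largest falls (right), with the siRNA 2600 arrays as triangles, the 3 controls as open circles and the 2 siRNA 3488 arrays as grey crosses; an asterisk marks genes that passed for siRNA 2600, here all 28. Both triangles lie outside the control circles for every gene, and for most the crosses lie nearer to the circles than to the triangles.

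Set against siRNA 3488 directly, 20 of the 28 named genes differed (11 rises and 9 falls; limma, adjusted p under 0.05), where 6.01% of all tested probe sets did. The genes were chosen on the siRNA 2600 arrays that this contrast also uses, so the share is not independent of the choice. The count was 10 without siRNA 2600 replicate 1, 11 without siRNA 3488 replicate 2, and 0 without an intensity trend. Igfbp5 read 55.7 and 69.4 with siRNA 3488, within or below the range of the controls. It differed between the siRNAs by 1.80 ± 0.28 (limma, adjusted p = 0.0121), and by 1.39 ± 0.14 on its brighter probe set (adjusted p = 0.0028). Oip5-as1 and Mlec also differed, by 1.12 ± 0.10 and 1.20 ± 0.12. Of the 28, 5 also passed for siRNA 3488 against the same control arrays, where 15.6% of all tested probe sets did. Kif20a, Nuf2 and Rgs5 were higher with siRNA 3488 than in the controls, with log2 changes of 1.07, 0.71 and 0.81, and their difference between the siRNAs did not pass (adjusted p = 0.0988, 0.429 and 0.0642). Lbp and Sema3f were lower, with changes of -0.37 (adjusted p = 0.0299) and -0.43 (adjusted p = 0.0339). Lbp differed between the siRNAs by -0.55 (adjusted p = 0.0208), and Sema3f did not pass that test (-0.35, adjusted p = 0.133).

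Most transcripts of cholesterol synthesis had higher signals with siRNA 2600, and 3 passed. The pathway joins acetyl units into mevalonate, turns this into isoprenoid units and squalene, and closes and trims the sterol ring. The transcription factor SREBP-2, the product of Srebf2, drives its genes when membrane sterol is low. Of 23 tested genes of cholesterol synthesis and uptake, 3 rose and 0 fell, where 0.729% of all 10019 genes rose and 0.369% fell. The median log2 change of the list was 0.24 and 22 of its genes were above 0, against a median of 0.01 and 52.4% above 0 over all genes. In 14 of the 23 both siRNA 2600 arrays lay above all controls, as they did in 18.8% of all genes. Averaged over the list, the deviation was 0.29 and 0.31 with siRNA 2600 and between -0.07 and 0.04 in the controls.

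Enzymes that rose stood at the isoprenoid, squalene and final steps. Idi1, which converts isopentenyl diphosphate to dimethylallyl diphosphate, read 1311 and 1225 with siRNA 2600 and 788, 813 and 547 in the controls, a rise of 0.85 ± 0.16 (limma, adjusted p = 0.0369). Sqle, the squalene epoxidase, read 723 and 685 against 529, 438 and 468, a rise of 0.56 ± 0.11 (adjusted p = 0.0405). Dhcr7, which reduces 7-dehydrocholesterol to cholesterol, read 1027 and 926 against 599, 599 and 574, a rise of 0.72 ± 0.12 (adjusted p = 0.0276). None of the 3 overlapped the controls, and the calls of Idi1 and Dhcr7 were lost under 10 and 8 of 17 alternatives.

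Cyp51, the lanosterol demethylase, was close to the threshold. Its brightest probe set, at 2779 and 2347 against 1907, 1862 and 1489, was at 0.55 ± 0.11 (limma, adjusted p = 0.0503), and a dimmer one rose by 0.68 ± 0.11 (adjusted p = 0.0241). Mvd, the decarboxylase that makes isopentenyl diphosphate, was at 0.75 ± 0.22 (adjusted p = 0.144), and Msmo1, a sterol C4 oxidase, at 0.39 ± 0.09 (adjusted p = 0.0703). Srebf2 did not behave alike in the cultures. It read 609 and 1270 with siRNA 2600 against 683, 793 and 808, so that one culture was below and the other above every control. Insig1, a sterol sensor whose own gene responds to SREBP-2, was at 0.06 ± 0.09.

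Relative to siRNA 3488, 7 of the 23 genes differed (limma, adjusted p under 0.05), against 6.96% of all genes, 6 of them higher and 1 lower with siRNA 2600. The higher ones were Tm7sf2 (0.72), Idi1 (0.69), Acat2 (0.61), Dhcr7 (0.60), Cyp51 (0.54) and Sc5d (0.38). Srebf2 was the lower one (-1.17). The list's median change against the same controls was 0.08 with siRNA 3488. The count of 3 rises was not steady: 0 passed without any 1 of the control arrays, without siRNA 2600 replicate 2 or without the filter on dim probe sets, and 4 passed under quantile, loess and median scaling. The median stayed between 0.21 and 0.32 under all 17 alternatives.

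Among genes of serine synthesis and of the amino acid stress response, 4 rose. ATF4 is a transcription factor made when the kinase arms of the stress response slow translation, and it drives the enzymes that make serine together with stress regulators such as Ddit3. Of 25 tested genes 4 rose and 0 fell, beside 0.729% and 0.369% of all genes. Their median was 0.20 and 22 were above 0, beside 52.4% of all genes. Psat1, the aminotransferase of the second step of serine synthesis, read 6282 and 5844 with siRNA 2600 and 3848, 3887 and 3436 in the controls, a rise of 0.70 ± 0.07 (limma, adjusted p = 0.00486). Phgdh, the enzyme of the first step, read 1848 and 1665 against 1182, 1125 and 968, a rise of 0.69 ± 0.10 (adjusted p = 0.0148). Psph, the phosphatase of the last step, did not pass.

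Ddit3, a transcription factor of prolonged stress, read 2608 and 2406 against 1928, 1852 and 1532, a rise of 0.51 ± 0.10 (limma, adjusted p = 0.0415). Chac1, which degrades glutathione, read 1011 and 1141 against 736, 788 and 791, a rise of 0.48 ± 0.08 (adjusted p = 0.0291). The groups did not overlap in any of the 4 genes. Atf4 itself was not among those that passed. The genes of this list were not alike in their relation to siRNA 3488: Psat1 differed from it by 0.70 ± 0.08 (adjusted p = 0.00464), whereas the difference was 0.08 ± 0.11 for Phgdh and 0.00 ± 0.09 for Chac1. Without 1 of the control arrays the count of rises was 1 or 2, and without siRNA 2600 replicate 2 it was 2.

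**Figure D3:**
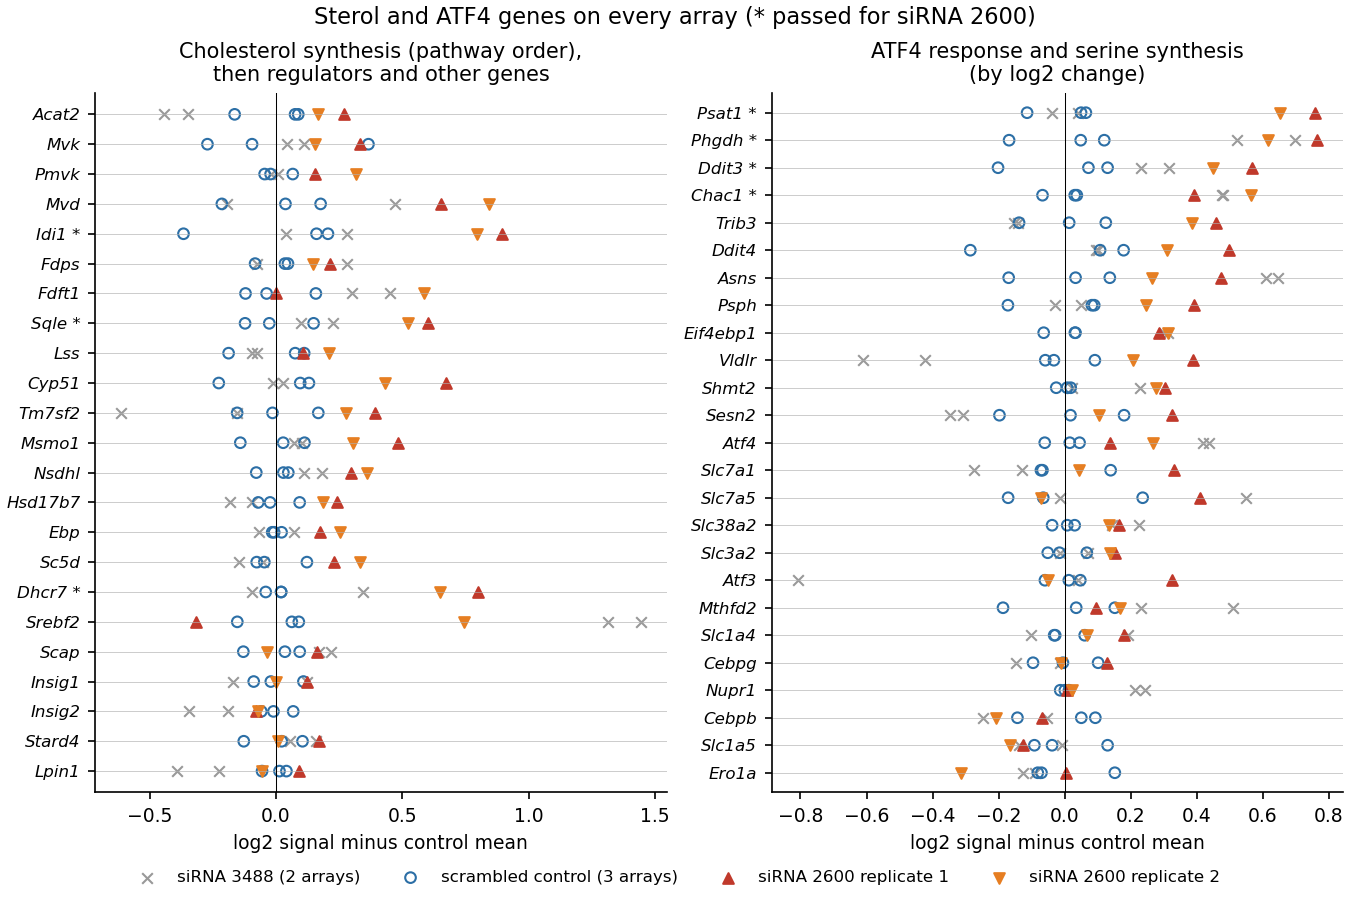
Log2 signal minus the control mean on every array for 23 genes of cholesterol synthesis and uptake in pathway order (left) and 25 genes of the ATF4 response and serine synthesis in order of change (right), with siRNA 2600 as triangles, controls as open circles and siRNA 3488 as grey crosses; an asterisk marks genes that passed for siRNA 2600 on their brightest probe set. The triangles of Idi1, Sqle, Dhcr7, Psat1 and Phgdh lie to the right of all control circles, while those of Srebf2 lie on either side.

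Most cell division genes had higher signals with siRNA 2600, and those that passed all rose. Their products build the kinetochore, which holds chromosomes to the spindle, move and cut the dividing cell, and drive entry into mitosis, and their transcripts peak in dividing cells. Over all genes 0.729% rose, 0.369% fell, 52.4% were above 0, and in 18.8% both siRNA 2600 arrays lay above all 3 controls. Of 46 tested kinetochore, spindle and cytokinesis genes 7 rose and 0 fell, the median was 0.31, and 42 were above 0. In 35 of the 46 both siRNA 2600 arrays lay above all 3 controls. Of 39 cyclins, kinases and cell cycle regulators 7 rose and 0 fell, with a median of 0.13 and 26 above 0. Of 47 genes of DNA replication and nucleotide synthesis 3 rose and 0 fell, with a median of 0.20 and 43 above 0.

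Nuf2, a subunit of the NDC80 complex that binds spindle microtubules, had the largest rise among the kinetochore genes. It read 8536 and 7195 with siRNA 2600 and 4349, 4777 and 3989 in the controls, a rise of 0.85 ± 0.09 (limma, adjusted p = 0.00495). Spc25, another subunit of that complex, read 887 and 928 against 650, 570 and 653, a rise of 0.54 ± 0.09 (adjusted p = 0.0241). Kif20a read 1772 and 2025 against 1041, 1142 and 1108. Plk1 (a mitotic kinase), Kif15 (a spindle kinesin), Knstrn (a spindle adaptor) and Cenpf (a kinetochore protein) rose by 0.55, 0.54, 0.54 and 0.47. Cdc20, the activator of the anaphase-promoting complex, had the lowest value of the list, -0.32, and did not pass.

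Among the regulators, Cks1b, a small partner of cyclin-dependent kinases, read 2938 and 3471 against 2064, 2123 and 2191. This was a rise of 0.59 ± 0.08 (limma, adjusted p = 0.0119), and its relative Cks2 rose by 0.56. Ccnb1, the mitotic cyclin B1, read 1440 and 1524 against 1129, 1084 and 1101, a rise of 0.42 ± 0.07 (adjusted p = 0.0234). Mki67, the proliferation marker Ki-67, read 2041 and 1942 against 1365, 1495 and 1451, a rise of 0.47 ± 0.07 (adjusted p = 0.0165). Top2a, a topoisomerase of condensing chromosomes, rose by 0.37 ± 0.07, Cdkn3 by 0.54 and Melk by 0.48. The replication genes that rose were Mcm10, an initiation factor (0.66 ± 0.13, with a dimmer probe set at 0.22), Dctpp1, which clears modified nucleotides (0.54 ± 0.09), and Rrm1, the large subunit of ribonucleotide reductase (0.54 ± 0.10). Fancd2, a protein of DNA crosslink repair, read 703 and 701 against 512, 423 and 496. In the list of repair and checkpoint genes it was the only one of 35 to pass (1.1% of all genes did). The list does not cover all repair genes, and Apex2, which fell and is described above, is not in it.

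**Figure D4:**
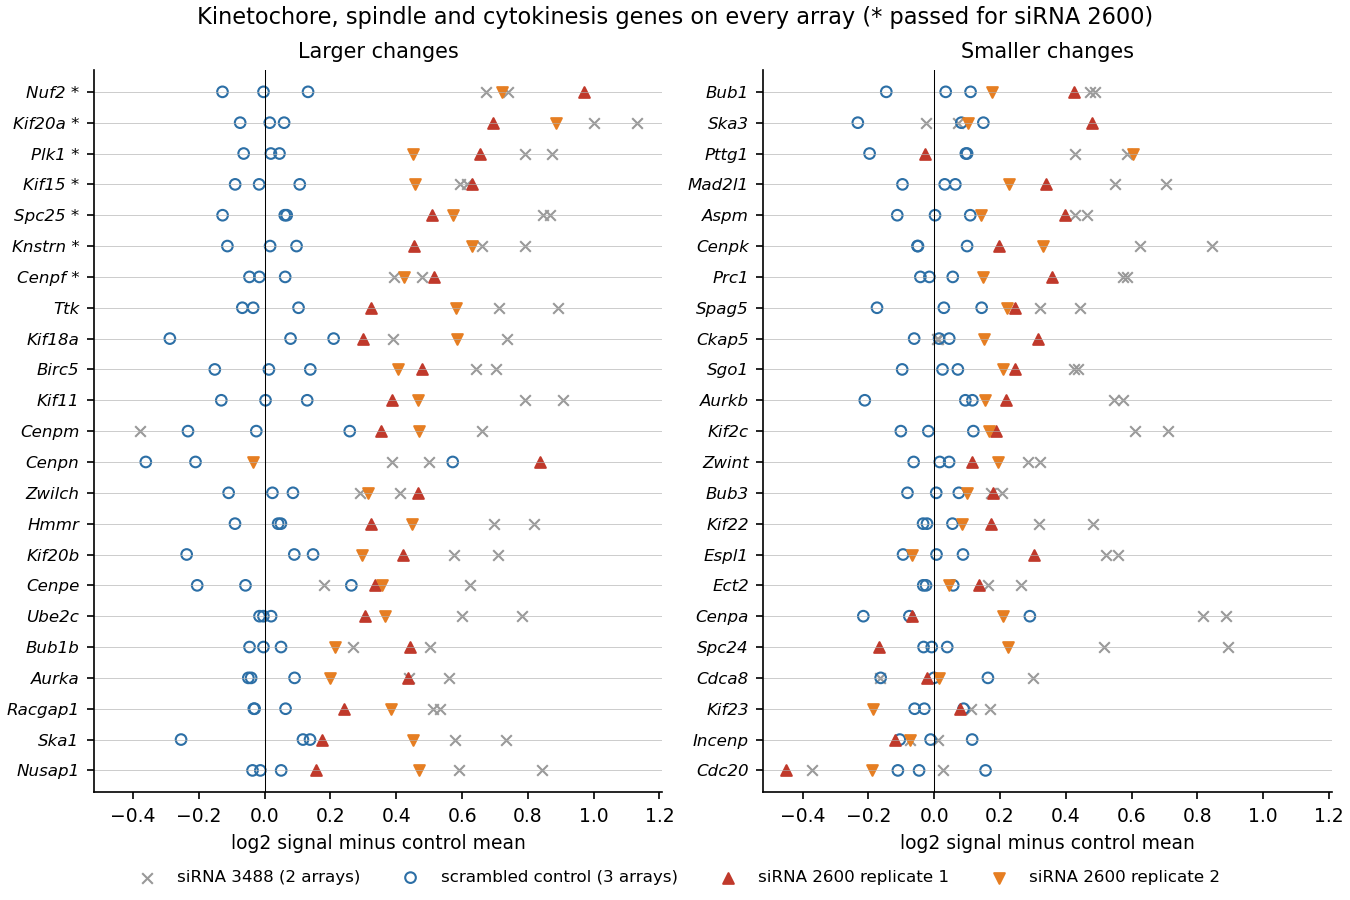
Log2 signal minus the control mean on every array for 46 kinetochore, spindle and cytokinesis genes in order of their change with siRNA 2600, split over 2 panels; triangles are siRNA 2600, open circles controls, grey crosses siRNA 3488, and an asterisk marks the 7 genes that passed. Most triangles lie right of the circles, and most crosses lie further right.

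Set against the same control arrays, siRNA 3488 gave medians of 0.53, 0.28 and 0.30 for the kinetochore, regulator and replication lists, beside 0.31, 0.13 and 0.20 with siRNA 2600. Between the siRNAs 6 of 46 kinetochore genes differed (limma, adjusted p under 0.05), all lower with siRNA 2600, where 3.53% of all genes were lower. Of the 39 regulators 7 differed, 6 of them lower. Top2a was among these (-0.43 ± 0.07, adjusted p = 0.0144), and Ccnd2, cyclin D2, was the one higher with siRNA 2600, by 0.63. The counts of rises depended on the control arrays. Without any 1 of them 2 kinetochore genes, 0 regulators and 0 replication genes passed. Without siRNA 2600 replicate 1 the counts were 4, 4 and 1, and without replicate 2 they were 3, 2 and 1. The kinetochore median stayed between 0.23 and 0.39 under all 17 alternatives, and that of the regulators between 0.04 and 0.22.

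Many promoters of cell division genes hold 2 short elements, CCAAT and the cell cycle homology element TTTGAA. Promoters of RefSeq (assembly GRCr8, 250 bases before to 50 after the start) were searched for both on either strand. A gene counted if any of its promoters held the motif, whereas the share of all is per promoter. The shares are therefore not in like units, and genes with several promoters are favoured. TTTGAA was present in 27 of 40 kinetochore genes with a promoter in the table (67.5%), in 6 of the 7 that rose, and in 18.3% of all 33469 promoters. CCAAT was present in 29 of the 40 (72.5%), in 4 of the 7, and in 37.5% of all. Of the regulators, 12 of 28 held TTTGAA and 15 of 28 held CCAAT. Both NDC80 subunits that rose are shown on their coding strand with these motifs in capitals, at chr13:84255549-84255848 (minus strand) for Nuf2 and chr3:74396669-74396968 (minus strand) for Spc25.
Nuf2: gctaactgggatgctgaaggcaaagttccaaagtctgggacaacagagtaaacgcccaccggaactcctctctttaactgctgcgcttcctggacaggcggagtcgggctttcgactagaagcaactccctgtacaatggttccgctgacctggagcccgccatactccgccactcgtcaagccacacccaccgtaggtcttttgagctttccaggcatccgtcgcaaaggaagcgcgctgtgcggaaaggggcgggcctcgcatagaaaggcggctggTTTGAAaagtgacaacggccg
Spc25: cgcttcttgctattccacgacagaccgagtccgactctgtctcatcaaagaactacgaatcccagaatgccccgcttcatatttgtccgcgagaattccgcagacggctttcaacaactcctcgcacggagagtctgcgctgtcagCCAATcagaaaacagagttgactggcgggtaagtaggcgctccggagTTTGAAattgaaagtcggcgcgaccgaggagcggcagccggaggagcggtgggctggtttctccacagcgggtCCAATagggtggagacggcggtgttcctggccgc
Nuf2 holds 1 TTTGAA and 0 CCAAT in this window, and Spc25 holds 1 and 2. A match of letters does not show binding. The pattern TCACNCCAC, searched as a sterol element in the same way on both strands, was in 0 of 19 cholesterol genes with a promoter. It was in 1.12% of all promoters. With a pattern this rare, 0 of 19 does not tell whether these promoters hold sterol elements.

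In the extracellular matrix and its proteases, single genes changed in both directions. Of 33 elastic fibre and matrix glycoprotein genes 4 rose and 0 fell, beside 0.729% and 0.369% of all genes, while the list's median was 0.03. Fbln5, which helps to assemble elastic fibres, read 2467 and 2673 with siRNA 2600 against 1803, 1686 and 1929, a rise of 0.51 ± 0.09 (limma, adjusted p = 0.0324). Eln, elastin, read 8342 and 8120 against 6537, 6227 and 6584, a rise of 0.35 ± 0.06 (adjusted p = 0.0247), with a dimmer probe set at -0.25. Spp1, osteopontin, rose by 0.44 ± 0.09 and Sdc1, a cell surface proteoglycan, by 0.37 ± 0.07, with a dimmer Sdc1 probe set at 0.08. All 4 passes were lost without any 1 of the control arrays, and 0 of 28 collagen genes passed, where 1.1% of all genes did. Col1a2, the closest of these, was at 0.56 ± 0.12 (adjusted p = 0.0657).

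Among 28 ADAMTS, ADAM and matrix metalloprotease genes and their inhibitors 1 rose and 2 fell, where 0.729% and 0.369% of all genes did. Serpine2, an inhibitor of thrombin and plasminogen activators, read 1500 and 1292 against 828, 810 and 896, a rise of 0.72 ± 0.09 (limma, adjusted p = 0.0073). Reck, a membrane inhibitor of matrix metalloproteases, read 1392 and 1201 against 2136, 2143 and 2077, a change of -0.71 ± 0.08 (adjusted p = 0.00486). Adamts10, a family member linked to fibrillin microfibrils, read 1071 and 1116 against 1466, 1473 and 1429, a change of -0.41 ± 0.07 (adjusted p = 0.0319), with a dimmer probe set at -0.20 (adjusted p = 0.409). The groups did not overlap for any of them. Serpine2 and Adamts10 also differed from siRNA 3488, by 0.62 and -0.54, whereas Reck did not pass that test (-0.29, adjusted p = 0.0663). In the list of TGF-beta, activin and bone morphogenetic protein signalling Inhba alone of 34 genes passed, against 1.1% of all genes. The receptor gene Amhr2, which fell and is described above, is not in that list.

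Antioxidant genes moved singly as well. Of 39 genes of the NRF2 and glutathione list 1 rose and 1 fell, where 1.1% of all genes passed. Mgst1, a membrane glutathione transferase, read 707 and 831 with siRNA 2600 against 1218, 1274 and 1323, a change of -0.73 ± 0.10 (limma, adjusted p = 0.00894). Prdx6, a peroxiredoxin, read 4929 and 4429 against 3650, 3746 and 3603, a rise of 0.35 ± 0.07 (adjusted p = 0.0389). Sod3, described above, is not in that list.

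Immediate early genes answer growth factors and serum within minutes. Of 41 tested, only Ier2 passed against the controls (1.1% of all genes did), at 3997 and 3626 against 2795, 2637 and 2300 (0.57 ± 0.11; limma, adjusted p = 0.0451). The list's median was 0.15 with siRNA 2600 and -0.16 with siRNA 3488 against the same controls. Between the siRNAs 10 of the 41 differed, against 6.96% of all genes, and 9 of them were higher with siRNA 2600, where 3.42% of all genes were. They included Nr4a1 (0.91), Dusp5 (0.79), Ier2 (0.78), Egr2 (0.76), Egr1 (0.60) and Junb (0.50), and the exception was Dusp1 (-0.33). In the fit of the 5 arrays of siRNA 2600 and control alone, 4 of the 41 rose, and under loess scaling or without any 1 of the control arrays 0 did.

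Other lists held 1 gene that passed or none. Dram1, a p53 target of the lysosome, read 2132 and 2067 against 2707, 2654 and 2828, a change of -0.38 ± 0.06 (limma, adjusted p = 0.0245). Ndufa5, a subunit of respiratory complex I, changed by -0.55 ± 0.10, although the median of its list was 0.12. Mysm1, a histone H2A deubiquitinase, changed by -0.63 ± 0.11, with a second probe set at 0.13. The splicing factor Prpf38b changed by -0.40 ± 0.08, with dimmer probe sets at -0.36 and -0.24. The splicing list's Luc7l and Rbm5 passed on a probe set other than the brightest, at -0.75 (adjusted p = 0.0226) and -0.49 (adjusted p = 0.0241). Ift27, a GTPase of intraflagellar transport, rose by 0.55 ± 0.09, and Myh10, a nonmuscle myosin heavy chain, by 0.32 ± 0.06. All 6 of these passes were lost without scrambled control replicate 2, and likewise without replicate 3.

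In 20 of the 39 lists no gene passed on its brightest probe set, where 1.1% of all genes did. In these lists Hlf, described above, and Atp6ap2, an accessory subunit of the vacuolar proton pump that also binds prorenin, passed on another probe set. That of Atp6ap2 read 826 and 885 against 1300, 1183 and 1239, a change of -0.54 ± 0.08 (limma, adjusted p = 0.0142). The 559 tested genes of these lists included those of collagens, proteasomes, both kinds of ribosome, translation factors, the interferon response and the RNA interference machinery, and their medians ran from -0.16 to 0.10. For the 39 tested genes of the interferon and foreign RNA response the median was -0.01. Of these 39 genes 0 passed, which is near the 1.1% of all genes. The controls also received duplex RNA by lipofection, and no untransfected culture is among the arrays. A response to duplex RNA common to both groups would therefore not show in this comparison. The closest, Stat2 and Eif2ak2 (the kinase PKR), were at 0.39 ± 0.09 (limma, adjusted p = 0.0772) and 0.42 ± 0.12 (adjusted p = 0.125). The 41 cytosolic ribosomal protein genes had a median of 0.07, with a mean of -0.02 on one siRNA 2600 array and 0.15 on the other. With siRNA 3488 their median was 0.46 against the same controls. Between the siRNAs 28 of the 41 differed, all lower with siRNA 2600, where 3.53% of all genes were lower.

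**Figure D5:**
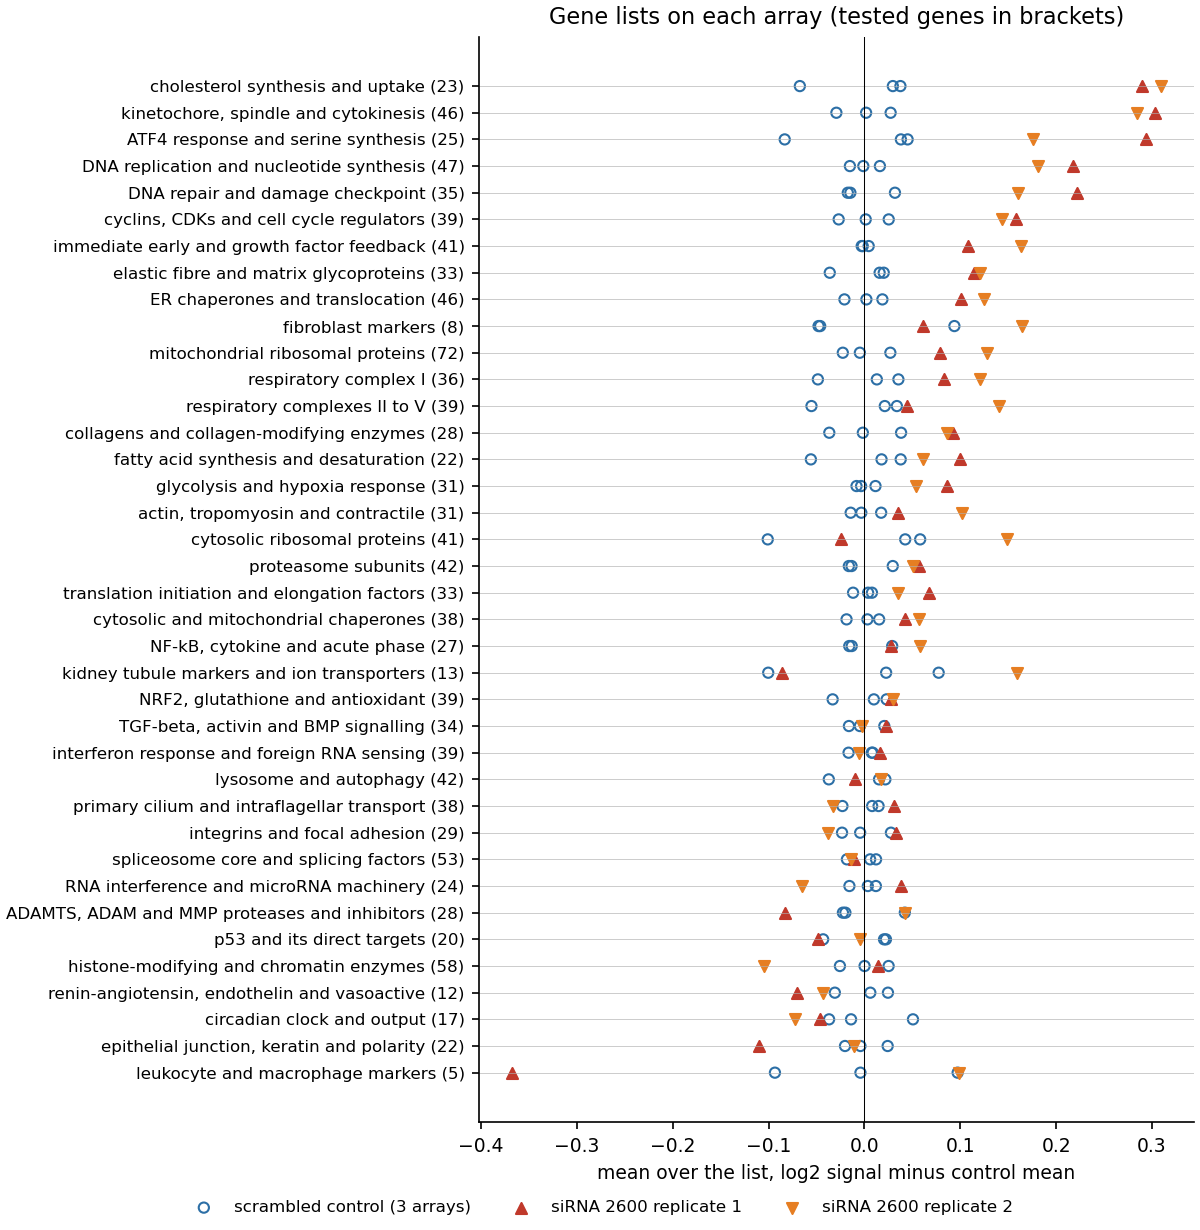
Mean log2 signal minus the control mean over the tested genes of each list on the siRNA 2600 arrays (triangles) and the 3 control arrays (open circles), for the 38 lists with at least 5 tested genes. The triangles of the cholesterol, kinetochore, ATF4 and DNA replication lists lie furthest right. Both triangles lie right of all circles in 20 of the lists, left of all circles in 2 (the renin-angiotensin and circadian lists), and in the rest overlap the circles or lie on either side. The median deviation over all tested genes stood in the same order, at 0.0139 and 0.0056 with siRNA 2600 and -0.0042 to 0.0044 in the controls.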

How the data were processed

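RNA of 7 cultures was labelled from 5 ug of total RNA and hybridised, 1 array each. The values the authors deposited are linear intensity signals, 1 per probe set and array, from GCOS 1.4 according to the submitters' processing notes. Its settings were not given in the sources used here. Trimmed means were 500.1 to 500.2, so the arrays shared a scale. With 7 arrays, their number limits the precision.

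Signals were raised to at least 1 before log2. Of 31042 probe sets that are not controls (57 are), the 60% with the highest mean log2 signal (above 6.09) were tested. The platform annotation gave 1 symbol for 20826, several for 436 and none for 9780. Only the first kind was named.

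The test was that of limma 3.58.1 (R 4.3.3; lmFit, eBayes with an intensity trend, Benjamini-Hochberg adjustment) in a fit of 3 groups over all 7 arrays with 4 residual degrees of freedom. A probe set passed at an adjusted p under 0.05. The fit was tested on simulated data.

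The members and the 39 gene lists were chosen with earlier results of these data known. Lists are described by counts and medians over each gene's brightest probe set. Named genes are the 14 largest rises and 14 largest falls that passed, with 1 symbol and no overlap between groups, ranked by the smaller deviation of the siRNA 2600 arrays. From each list up to 4 genes that passed are named, or the 2 with the lowest p where fewer than 2 passed. Further genes named from a list were chosen after their values were seen. Alternatives were the 5 arrays alone, a replicate block, 3 scalings, 2 filters, 2 floors, no intensity trend and leaving out each array.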

Additional observations from a re-analysis of the deposited data

Results flagged for a closer look

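Of 109 named genes and list examples, 39 differed between siRNA 2600 and siRNA 3488 (limma, adjusted p under 0.05), 18 higher and 21 lower with siRNA 2600; 29 of them had also passed against the controls. Over all genes 6.96% differed between the siRNAs, and 6.01% of all probe sets. Both contrasts use the same siRNA 2600 arrays, and most of these genes were picked for a change on them. Values are the log2 change with siRNA 2600 minus that with siRNA 3488, and no cause was tested.

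Secreted and signalling genes that were higher with siRNA 2600 were Igfbp5 (1.80), Inhba (0.81), Serpine2 (0.62), Sdc1 (0.34) and the immediate early gene Ier2 (0.78). Endoplasmic reticulum glycoprotein folding genes were Mlec (1.20) and Uggt1 (0.62). Metabolic genes were Psat1 (0.70), Idi1 (0.69), Dhcr7 (0.60), Pafah1b2 (0.71) and Acss2 (0.52), the last of which makes acetyl-CoA from acetate and had not passed against the controls. Myo1f (0.95), Klc1 (0.80), Lypd8 (0.74) and the noncoding Oip5-as1 (1.12) completed those that had passed. The mitochondrial ribosomal protein gene Mrpl1 (0.63) and the RNA-sensing kinase gene Eif2ak2 (0.53) had not passed against the controls.

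Lower with siRNA 2600 were the receptor Amhr2 (-1.82), the secreted Sod3 (-0.91) and Lbp (-0.55), the protease Adamts10 (-0.54), the transferase Mgst1 (-0.53), elastin, Eln (-0.28), the lysosomal Dram1 (-0.42) and the topoisomerase Top2a (-0.43). Apex2 (-0.89), Gosr2 (-0.80), 4933427D14Rikl (-0.79), Coro6 (-0.76), Hba-a3 (-0.74) and Akap8l (-0.53) were lower as well. The other 7 had not passed against the controls. They are the myosin light chain kinase Mylk (-0.79), the amino acid transporter Slc7a9 (-0.77), the gap junction gene Gja1 (-0.40), the autophagy gene Gabarapl1 (-0.39), Rpl18 (-0.39), Uqcr10 (-0.35) and Ran (-0.34). For Eln and Top2a both siRNAs were above the controls, and siRNA 3488 more so.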

How the results depend on the processing

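The count of 192 probe sets was within 1.5 times under quantile (264), loess (214) and median scaling (205), the upper 40% filter (227), the raised floor (230), the offset (204) and the 5 arrays alone (170). Median centring gave 160 higher and 45 lower, no filter 91 (52 and 39), and no intensity trend 0 (0 and 0), with 0 of 28 named genes then differing from siRNA 3488. Leaving out 1 array gave 25 to 231 probe sets, 15 to 109 higher and 10 to 122 lower, and 10 to 17 of the named genes differing between siRNAs. The replicate block gave 67 (38 and 29), 61 of them among the 192. Deviations of same-numbered arrays correlated at 0.16 and -0.05 between siRNA 2600 and control, and at 0.07 and 0.02 between siRNA 3488 and control. Between the siRNAs the correlation was 0.14 for both numbers, which is 1 value because each of these groups holds 2 arrays. Not every pair was above 0.1, so the numbers were not taken to pair the cultures. These values do not exclude that they do. Where 1 siRNA 2600 array was left out, the other was assumed to vary like the other groups. The Adamts16 probe set was at -2.13 without siRNA 2600 replicate 1 and 1.02 without replicate 2 (adjusted p = 0.477 and 0.801), and had no value with the raised floor, which lies above all its signals. Leaving out 1 array turned the sign of 4 markers that did not pass: Aif1 ran from -1.36 to 0.184, Esam from -0.448 to 0.218 (0.04 without scrambled control replicate 1), Fcer1g from -0.673 to 0.0221 and Tek from -0.448 to 0.0212. Why these values moved was not tested.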

Other observations

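Further genes passed that belong to none of the lists; they were chosen after their values were seen. Fkbp5, a cochaperone of steroid receptors that glucocorticoids induce, read 446 and 367 with siRNA 2600 against 235, 232 and 252 in the controls (0.76 ± 0.13, limma, adjusted p = 0.0313). Fmo4, a flavin monooxygenase, rose on 2 probe sets, by 0.59 and 0.43, and both differed from siRNA 3488 (adjusted p = 0.0162 and 0.00551). Mdk, the growth factor midkine, read 2491 and 2689 against 1828, 1815 and 1938 (0.48 ± 0.07, adjusted p = 0.0129). Ube2t, the ubiquitin-conjugating enzyme that acts on Fancd2, rose by 0.70 ± 0.11, and Dtl, a substrate receptor of a replication-coupled ubiquitin ligase, by 0.57 ± 0.09.

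Gpd1l1 fell on both of the probe sets that passed, with log2 changes of -0.50 and -0.39. Pde3b, a phosphodiesterase that insulin activates, read 512 and 531 against 767, 798 and 800 (-0.60 ± 0.08, limma, adjusted p = 0.0122). Eps15, an adaptor of endocytosis, changed by -0.52 ± 0.08, and Sirt6, a chromatin deacylase, by -0.47 ± 0.08.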
